A study of Homo sapiens with 10 samples.

Results

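The axon guidance ligands and receptors are 70 protein-coding genes of the 55841 gene identifiers that were counted in cultures of human embryonic stem cells. Genes entered the set by symbol and not by a measured value, but the set was chosen with earlier results of these data known. The set holds the ephrins (EFNA, EFNB) and their EPHA and EPHB receptors, the semaphorins (SEMA) with the plexins (PLXN) and neuropilins (NRP1, NRP2), the netrins (NTN1, NTN3, NTN4) with DCC and the UNC5 group, and SLIT1 to SLIT3 with ROBO1 to ROBO4. UNC50 and UNC5CL entered through their spelling only. UNC50 is not a guidance receptor, and UNC5CL is a death-domain relative of the UNC5 receptors. Both are reported with the group and neither passed a test between the populations.

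Guidance molecules were named for steering growing axons. Ephrins are tethered to the membrane and bind Eph receptor tyrosine kinases on the neighbouring cell, so that both cells can receive a signal. Class 3 semaphorins are secreted and are mostly read by a neuropilin in complex with a plexin, whereas semaphorins of the other vertebrate classes are largely membrane proteins that bind plexins directly. Netrins attract through DCC and repel through UNC5 receptors, and Slits repel through ROBO receptors. The same molecules set boundaries between cell groups, and act in vessels, neural crest and epithelia as well as in the nervous system.

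RNA was measured in 10 libraries of the cell line that the labels name HES9, grown in mTESR1 medium on matrigel, an extracellular matrix. General libraries (n = 5) came from the unsorted culture, and HHH libraries (n = 5) from the cells sorted for the highest EPCAM, GCTM2 and CD9, surface antigens of undifferentiated stem cells. The study regarded the HHH fraction as a subset with high capacity for self-renewal. Batch 1 held 2 general and 2 HHH libraries, and batch 2 held 3 of each. The general culture contains HHH cells too, and sorting was applied to HHH cells only, so an effect of sorting and a property of the fraction cannot be told apart. The series' design text mentions a protein kinase C inhibitor that no library label carries, and the study's text names the cells WA09. The labels do not say whether replicates came from separate cultures, so p-values measure the spread between these libraries only.

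Total counts per library ran from 47242595 to 78503395, and 1 count stood for 0.0153 to 0.0229 CPM, the unit of counts scaled to library size, here by the TMM method. Markers of the pluripotent state were present in both populations. POU5F1 averaged 516 ± 30.9 CPM in general and 569 ± 72.6 CPM in HHH libraries (SD, n = 5 each), and EPCAM, one of the sorting antigens, was higher in HHH (log2 fold change 0.41, edgeR adjusted p = 0.0064). Of the 70 guidance genes, 68 passed the filter on low counts and were tested. DCC and ROBO4 were not. DCC had a mean of 0.160 CPM in general and 0.152 CPM in HHH libraries, and ROBO4 had 0.0888 CPM and 0.116 CPM.

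Within families, levels were compared as CPM per kilobase of exon, since longer transcripts yield more fragments. Over all libraries 37 of the 70 genes stood at 1 CPM per kilobase or more and 8 at 10 CPM per kilobase or more, while 6 were under 0.1. The highest level belonged to EPHA1, a receptor for A-type ephrins, at 30.03 ± 1.6 CPM per kilobase in general libraries (SD, n = 5) and 34.7 ± 4.5 in HHH. EPHB4, the receptor for ephrin-B2, followed at 23.3 ± 1.6 and 22.9 ± 4.9 CPM per kilobase. SEMA6A, a transmembrane semaphorin, ROBO1, a Slit receptor, and UNC5D, a netrin receptor, came next with general levels of 15.2 ± 3.1, 14.3 ± 2.9 and 13.1 ± 1.1 CPM per kilobase. Neighbours in that order differed by less than the larger of their SDs. PLXNB2 (13.1 ± 1.5) and SEMA4C (12.9 ± 0.71) were close to them.

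The cultures thus transcribed receptors and ligands of every family, but at unlike levels. The leading ephrin-A was EFNA4 at 9.19 ± 1.2 CPM per kilobase in general libraries, though 15.04% of its exonic bases also lie in the read-through gene EFNA4-EFNA3. The leading ephrin-B was EFNB2, the ligand of EPHB4, at 3.07 ± 0.80. SEMA3A led the secreted class 3 semaphorins at 6.22 ± 0.53. Of the neuropilins, the co-receptors of that class, NRP2 stood at 2.23 ± 0.36 and NRP1, through which SEMA3A acts, at 0.500 ± 0.20. Netrins and Slits were low: NTN1 stood at 0.545 ± 0.22 and SLIT2 at 0.890 ± 0.089 CPM per kilobase. The same gene led each family when levels were ranked on the log2 RPKM values that the authors deposited, which carry their own gene lengths.

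**Figure D1:**
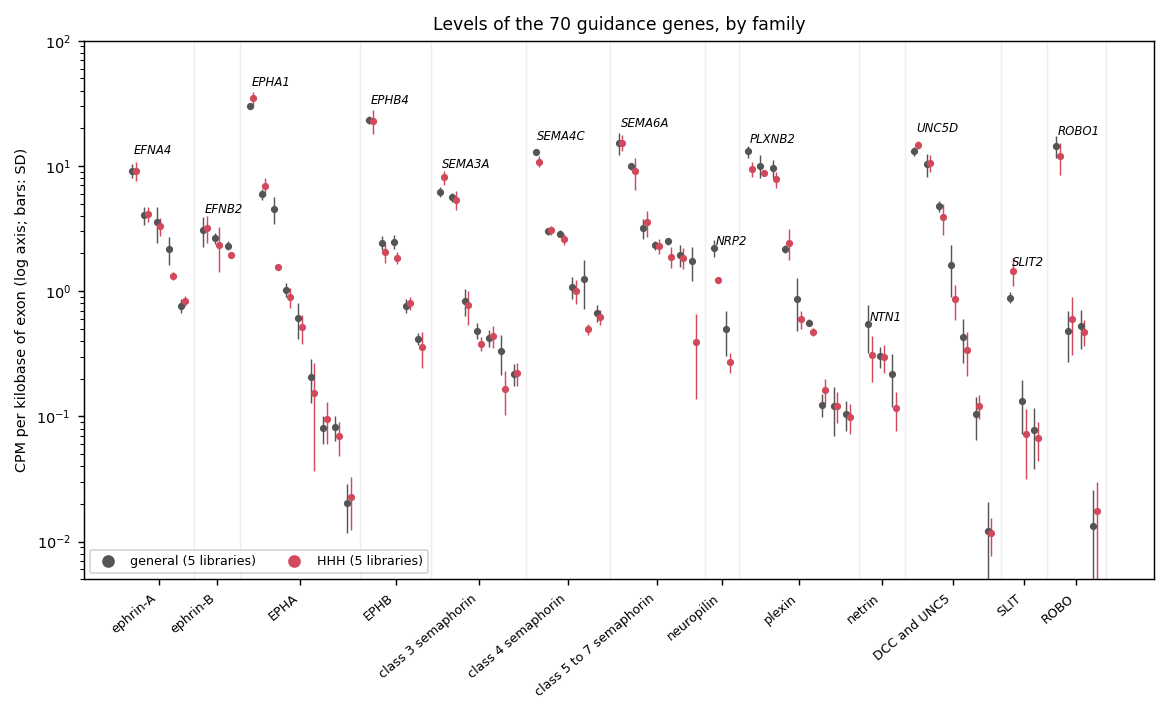
Mean level of each of the 70 genes in CPM per kilobase of exon (log axis) in general (grey) and HHH (red) libraries, n = 5 each, with bars for the SD over libraries, which span both batches; genes are ordered within each family by level and the leader is named. EPHA1 and EPHB4 stand highest, at 30.03 and 23.3 in general libraries, and DCC and ROBO4 lowest.

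Between the populations, 16 of the 68 tested genes passed at an adjusted p under 0.05, which is 23.5% of them, against 5.83% of all 23552 genes tested and 7.48% of the protein-coding genes tested. Lower in HHH were 14 genes, where the share over all tested genes was 3.89%: the semaphorins SEMA6D, SEMA4A, SEMA3B and SEMA5B, the Eph receptors EPHA4 and EPHB2, the ephrin EFNA5, both neuropilins, PLXNB2, the netrins NTN1 and NTN3, the netrin receptor UNC5A, and SLIT1. Higher in HHH were SLIT2 and SEMA3A, where the share over all tested genes was 1.94%. A fold change over 1.5 besides was reached by 12 of the 16, against 2.98% of all tested genes. The median log2 fold change over the 68 genes was -0.14, and over all tested genes 0.02. In a bulk culture, fewer cells that express a gene and less RNA per cell cannot be told apart. Without a term for batch, 3 guidance genes passed, namely SEMA6D, EPHA4 and NRP2, against 0.713% of all genes tested.

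**Figure D2:**
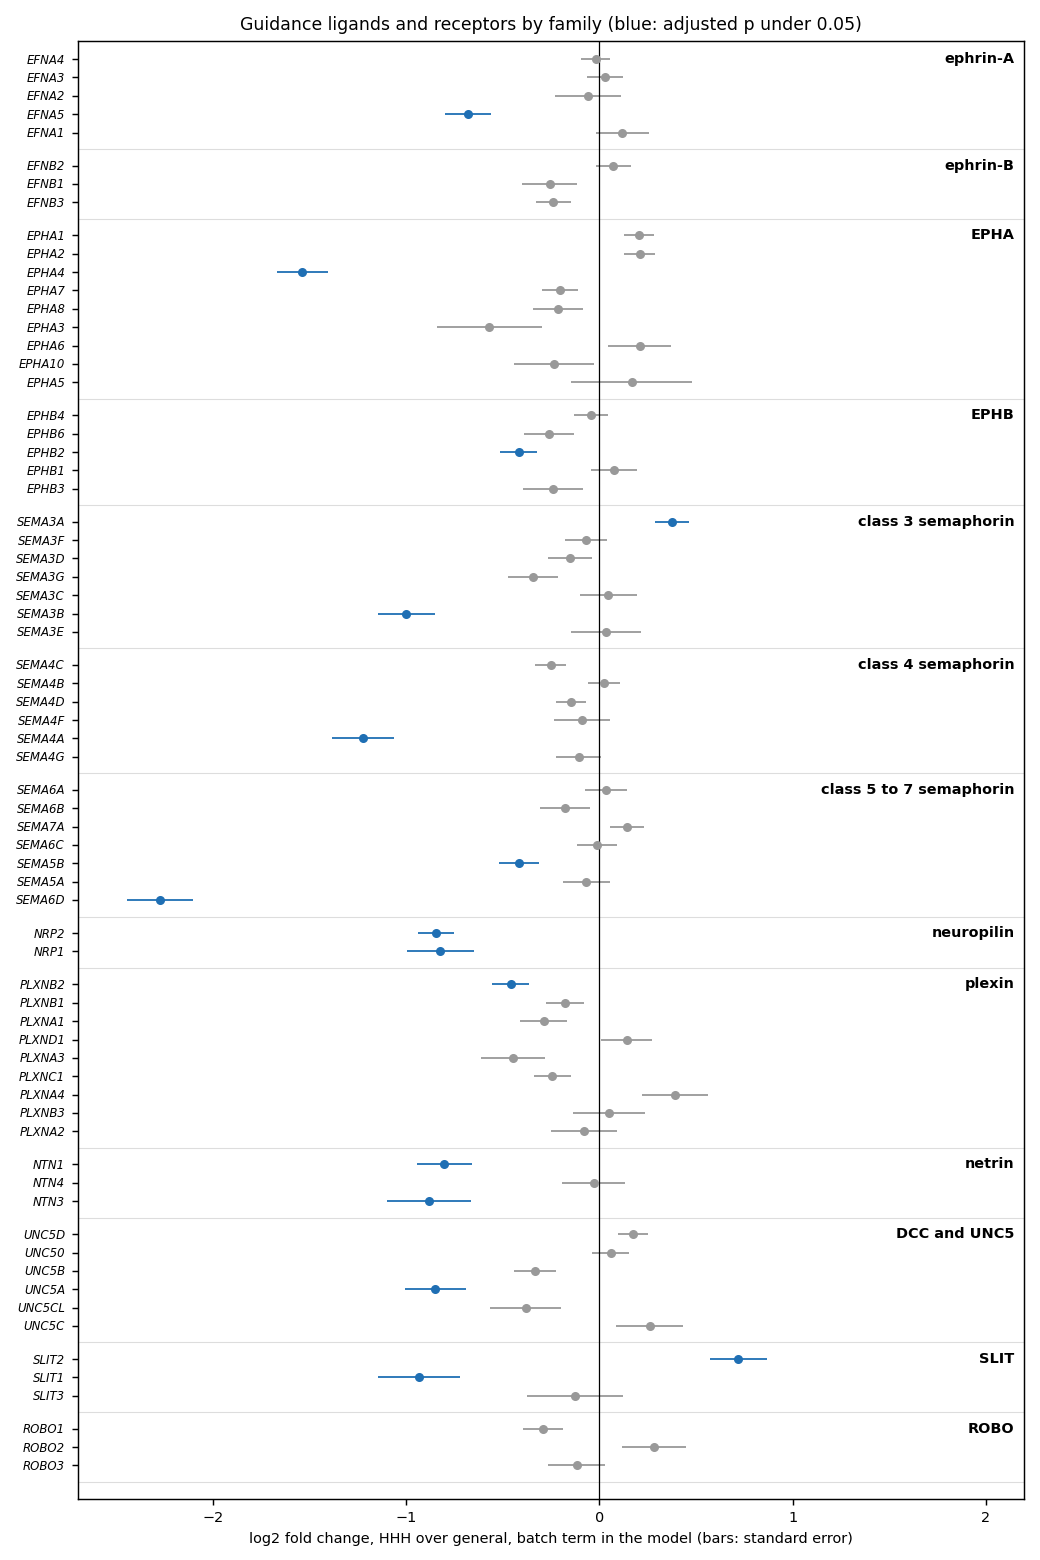
Log2 fold change of HHH over general for the 68 tested genes, from the edgeR fit on all 10 libraries with batch as a term; bars are the standard error, genes stand under their family in order of level, and blue marks an adjusted p under 0.05. SEMA6D (-2.28) and EPHA4 (-1.54) lie farthest to the left, and SLIT2 (0.72) farthest to the right among the genes that passed.

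The windows just upstream of the annotated start are shown for the 3 genes with the smallest p among those that were lower, and for SLIT2, which was higher. They show how unlike these promoters are in base composition. Each is 250 bases of RefSeq sequence (GRCh38.p14), 5′ to 3′ on the strand of the gene, with capitals marking GC boxes (GGGCGG on either strand). SEMA6D, EPHA4 and NRP2 have several annotated starts or may start elsewhere in these cells, and the counts do not say which start was used. The windows are SEMA6D at chr15:47183839-47184088 on the plus strand, EPHA4 at chr2:221574203-221574452 on the minus strand, NRP2 at chr2:205682251-205682500 on the plus strand and SLIT2 at chr4:20251655-20251904 on the plus strand.
SEMA6D: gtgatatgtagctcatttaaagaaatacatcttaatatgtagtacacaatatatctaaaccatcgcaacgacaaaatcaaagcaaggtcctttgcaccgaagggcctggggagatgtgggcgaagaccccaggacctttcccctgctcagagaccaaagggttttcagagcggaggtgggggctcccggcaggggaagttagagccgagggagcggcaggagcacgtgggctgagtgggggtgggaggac
EPHA4: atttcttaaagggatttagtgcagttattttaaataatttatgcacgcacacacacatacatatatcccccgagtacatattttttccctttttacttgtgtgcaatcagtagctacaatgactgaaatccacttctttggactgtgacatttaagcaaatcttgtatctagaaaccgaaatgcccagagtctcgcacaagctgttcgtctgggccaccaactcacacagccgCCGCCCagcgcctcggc
NRP2: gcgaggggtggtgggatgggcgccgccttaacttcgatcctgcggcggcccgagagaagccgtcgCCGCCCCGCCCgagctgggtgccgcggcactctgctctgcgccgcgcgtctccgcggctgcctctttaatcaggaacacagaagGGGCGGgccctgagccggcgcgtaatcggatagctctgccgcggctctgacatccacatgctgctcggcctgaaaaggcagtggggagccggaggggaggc
SLIT2: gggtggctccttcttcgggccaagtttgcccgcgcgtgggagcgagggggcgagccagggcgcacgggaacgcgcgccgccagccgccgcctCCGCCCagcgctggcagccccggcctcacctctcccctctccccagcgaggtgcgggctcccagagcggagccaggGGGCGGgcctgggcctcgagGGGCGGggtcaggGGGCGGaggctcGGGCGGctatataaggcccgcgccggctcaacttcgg
GC content was 53.6% in the SEMA6D window, 43.2% in that of EPHA4, 70% in that of NRP2 and 77.2% in that of SLIT2, with 0, 1, 3 and 5 GC boxes, of which those on either strand may overlap, as they do once in NRP2. Windows were available for 60 of the 70 genes, and 44 of these (73.3%) held a GC box, against 42.3% of 27305 RefSeq promoters. An E-box (CANNTG, which reads the same on both strands) was found in 32 of the 60 (53.3%), against 62.2% of all promoters. A CCAAT box (CCAAT, either strand) was found in 20 of the 60 (33.3%), against 33.0%. Among the 11 lower genes that had a window, 7 held a GC box and 6 an E-box, and no window held CCAAT on either strand. A TATA box (TATAAA) and the octamer ATGCAAAT were each found in 1 of the 60 windows (1.67%), against 11.1% and 1.66% of all promoters. These are matches of letters and not binding sites.

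Ephrins and Eph receptors came first by number of genes. EFNA5, a membrane-anchored ephrin that several EPHA receptors bind, read 9.37 and 8.91 CPM in the batch 1 general libraries and 13.4, 15.8 and 14.8 CPM in those of batch 2. In HHH it read 7.004 and 7.82 CPM in batch 1 and 8.48, 7.39 and 7.26 CPM in batch 2. Every HHH library lay below every general one, with a wider gap in batch 2. The log2 fold change was -0.68 (SE 0.12; edgeR adjusted p = 0.00298), or 1.60-fold lower. The other A-type ephrins EFNA1 to EFNA4 had log2 fold changes from -0.06 (EFNA2) to 0.12 (EFNA1) and did not pass. Among the B-type ephrins, which are transmembrane, EFNB2 stood at 0.07, EFNB1 at -0.26 and EFNB3 at -0.24, and the adjusted p of each was above the threshold. By unadjusted p under 0.05 the ephrin-B family had 1 such gene, against 4924 of all 23552 genes tested. DESeq2 and limma with voom also called 0 of the 3. On the deposited values EFNB3 passed (limma adjusted p = 0.0476), against 5.45% of all genes, but not after centring.

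EPHA4, an Eph receptor that binds ephrins of both types, showed the largest change of the Eph receptors. General libraries read 34.1 and 22.5 CPM in batch 1 and 31.1, 43.3 and 40.5 CPM in batch 2, while HHH libraries read 11.1 and 12.4 CPM in batch 1 and 12.3, 11.1 and 11.7 CPM in batch 2. The HHH values were nearly equal in both batches (11.7 ± 0.638 CPM, SD, n = 5), and all lay below the lowest general library. EPHA4 was 2.90-fold lower (log2 fold change -1.54, SE 0.13, edgeR adjusted p = 6.78e-06). EPHB2, a receptor for B-type ephrins, averaged 31.1 ± 3.97 CPM in general and 23.2 ± 2.70 CPM in HHH libraries, 1.34-fold lower (log2 fold change -0.42, SE 0.10, edgeR adjusted p = 0.0176). EPHB2 lost the call without general batch 2 replicate 2 (edgeR adjusted p = 0.0527) and on the centred deposited values (limma adjusted p = 0.0585).

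The most abundant Eph receptors did not pass. EPHA1 read 132 to 153 CPM in general and 131 to 182 CPM in HHH libraries, and the difference of 0.20 on the log2 scale (SE 0.08) missed the threshold (edgeR adjusted p = 0.141). With a trend on GC content removed, EPHA1 passed (log2 fold change 0.27, edgeR adjusted p = 0.0171), as it did without HHH batch 2 replicate 3 (edgeR adjusted p = 0.0259). EPHA2, which shares ligands with EPHA1, stood at 0.21, and it too passed with the GC trend removed (log2 fold change 0.28, edgeR adjusted p = 0.0216) and without that library (edgeR adjusted p = 0.0340). EPHB4 stood at -0.04 (SE 0.09) and ran from 108 CPM to 184 CPM among HHH libraries, a range that enclosed all general ones. The remaining EPHA genes lay between -0.57 (EPHA3, SE 0.27) and 0.21 (EPHA6), and EPHB1, EPHB3 and EPHB6 between -0.26 and 0.08. EPHA4 was thus the only EPHA gene, and EPHB2 the only EPHB gene, to pass in the fit over both batches, and differences between family members were not tested.

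Semaphorins supplied the largest change of all 68. SEMA6D, a transmembrane semaphorin that binds plexins of the A type, read 19.7 and 19.2 CPM in the general libraries of batch 1 and 10.9, 11.7 and 11.98 CPM in those of batch 2. HHH libraries read 4.99 and 6.40 CPM in batch 1 and 1.44, 1.64 and 2.40 CPM in batch 2. All HHH libraries were lower than all general ones, and each population was lower in batch 2 than in batch 1. The gene was 4.84-fold lower in HHH (log2 fold change -2.28, SE 0.17, edgeR adjusted p = 2.08e-06). Its relatives SEMA6A, SEMA6B and SEMA6C, which are also transmembrane, stood at log2 fold changes of 0.04, -0.18 and -0.01 and did not pass. SEMA5B, which carries thrombospondin repeats, averaged 21.3 ± 1.44 CPM in general and 16.1 ± 3.02 CPM in HHH libraries and was 1.33-fold lower (log2 fold change -0.41, SE 0.10, edgeR adjusted p = 0.0301). In batch 1 its HHH libraries read 17.4 and 20.7 CPM against 19.997 and 21.1 CPM in general, so the populations overlapped there. SEMA5B lost its call without any 1 of 7 libraries, namely each library of batch 2 and HHH batch 1 replicate 2, with edgeR adjusted p from 0.0575 to 0.0866. It also lost the call when counts were scaled by library size only (edgeR adjusted p = 0.0759) and on the centred deposited values (limma adjusted p = 0.0701).

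SEMA4A, a class 4 semaphorin better known from immune cells and retina, read 4.50 and 4.52 CPM in batch 1 general libraries and 10.6, 10.9 and 11.4 CPM in those of batch 2. In HHH it read 3.08 and 2.93 CPM in batch 1, and 3.54, 3.56 and 3.71 CPM in batch 2. Replicates lay close together, and the general libraries of batch 2 stood well above those of batch 1, which the HHH libraries did not. SEMA4A was 2.34-fold lower over both batches (log2 fold change -1.22, SE 0.16, edgeR adjusted p = 0.000295). SEMA4C, the most abundant class 4 semaphorin and a ligand of PLXNB2, averaged 80.8 ± 4.43 CPM in general and 67.9 ± 6.80 CPM in HHH libraries. The difference, -0.25 on the log2 scale (SE 0.08), missed the threshold (edgeR adjusted p = 0.0771). It passed when same-numbered libraries were treated as pairs (edgeR adjusted p = 0.0466) and without HHH batch 1 replicate 3 (edgeR adjusted p = 0.0337). These passes are not separate, since that library has no same-numbered partner and carries no weight on the population in the paired fit. Of all genes tested, 6.95% passed in the paired fit and 9.80% without that library, against 5.83% with batch as a term. SEMA4C also passed with all libraries in DESeq2 (adjusted p = 0.0350), against 8.42% of all genes. On the deposited values it passed (limma adjusted p = 0.0356), against 5.45%, but not after centring (limma adjusted p = 0.144). SEMA4B, SEMA4D, SEMA4F and SEMA4G lay between -0.15 and 0.02.

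Of the secreted class 3 semaphorins, SEMA3A was higher and SEMA3B lower. SEMA3A, the prototype repellent that acts through NRP1, read 53.7 and 63.9 CPM in batch 1 general libraries and 60.4, 58.1 and 51.9 CPM in those of batch 2, against 65.3 and 63.9 CPM in batch 1 HHH libraries and 84.6, 79.1 and 82.9 CPM in those of batch 2. The difference thus lay in batch 2, and the batch 1 libraries nearly met. It was 1.30-fold higher over both batches (log2 fold change 0.37, SE 0.09, edgeR adjusted p = 0.0202). The call was lost without any 1 of 5 libraries of batch 2, the general replicates 1, 2 and 3 and the HHH replicates 1 and 2, with edgeR adjusted p from 0.0535 to 0.0669. SEMA3B, a related repellent, averaged 1.91 ± 0.676 CPM in general and 0.962 ± 0.365 CPM in HHH libraries, which is -0.9996 on the log2 scale (SE 0.15; edgeR adjusted p = 0.000854). Its populations were apart within each batch, at 1.19 and 1.29 against 0.5997 and 0.549 CPM in batch 1 and 2.08 to 2.83 against 1.08 to 1.32 CPM in batch 2. SEMA3C to SEMA3G lay between -0.34 (SEMA3G) and 0.05 (SEMA3C).

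Both neuropilins, the ligand-binding co-receptors for class 3 semaphorins that also bind vascular endothelial growth factor, were lower in HHH. NRP2 read 26.8 and 25.2 CPM in batch 1 general libraries and 31.2, 34.7 and 36.8 CPM in those of batch 2, and in HHH 16.7 and 18.6 CPM in batch 1 and 16.8, 16.8 and 16.6 CPM in batch 2. The HHH libraries were all below the general ones, with an SD of 0.851 CPM across batches. NRP2 was 1.797-fold lower (log2 fold change -0.85, SE 0.09, edgeR adjusted p = 8.03e-05). NRP1 read 2.97 and 3.95 CPM in batch 1 and 8.14, 7.68 and 6.08 CPM in batch 2 in general libraries, and 3.36 and 2.13, then 3.48, 3.18 and 3.41 CPM in HHH. The populations overlapped in batch 1 and were apart in batch 2. NRP1 was 1.77-fold lower (log2 fold change -0.82, SE 0.17, edgeR adjusted p = 0.0099).

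Plexins transduce semaphorin signals through a GTPase-activating domain. PLXNB2, the most abundant of them and a receptor for class 4 semaphorins, averaged 95.2 ± 10.6 CPM in general and 69.0 ± 9.20 CPM in HHH libraries. The lowest general library (79.8 CPM) and the highest HHH library (79.0 CPM) nearly met, both in batch 1. It was 1.37-fold lower (log2 fold change -0.46, SE 0.10, edgeR adjusted p = 0.0108). The receptors of class 3 and 6 semaphorins, PLXNA1 and PLXNA3, stood at -0.29 and -0.45 and did not pass (edgeR adjusted p = 0.191 and 0.136). Both passed with the libraries paired by number (edgeR adjusted p = 0.0369 and 0.0242) and without HHH batch 1 replicate 3 (0.0348 and 0.0145). These settings are not separate, since that library has no same-numbered partner. Of all genes tested, 6.95% and 9.80% passed under them, against 5.83% with batch as a term. With all libraries and no filter on low counts PLXNA1 and PLXNA3 also passed (edgeR adjusted p = 0.0359 and 0.00403), against 5.46% of all genes. On the deposited values both passed (limma adjusted p = 0.0462 and 0.0346), against 5.45%, but not after centring. The other 6 plexins lay between -0.24 (PLXNC1) and 0.39 (PLXNA4).

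**Figure D3:**
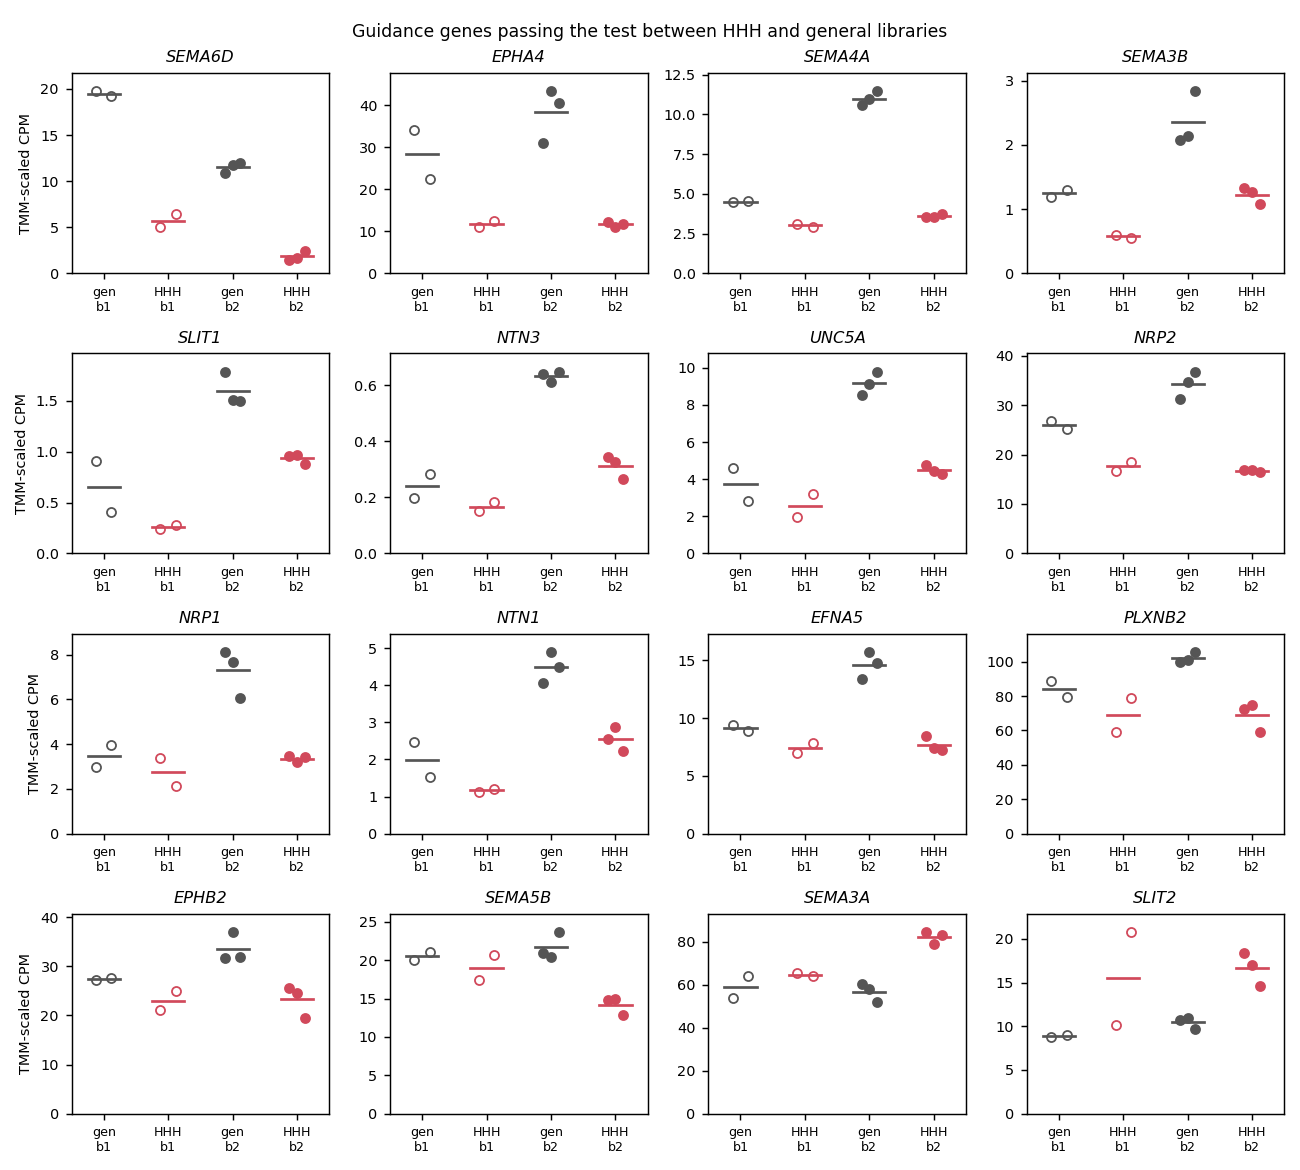
TMM-scaled CPM of the 16 guidance genes that passed, 1 point per library (linear axes from 0), with general libraries in grey, HHH in red, open points for batch 1 and filled points for batch 2; short lines are the mean of a population in a batch. For SEMA6D, EPHA4 and NRP2 the HHH libraries lie below the general ones in both batches, whereas SEMA3A and SEMA5B separate in batch 2 only.

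Netrins were low in these cells. NTN1, the classical netrin, read 2.47 and 1.52 CPM in batch 1 general libraries and 4.08, 4.91 and 4.50 CPM in those of batch 2, and in HHH 1.11 and 1.21, then 2.56, 2.89 and 2.23 CPM. HHH libraries were lower within each batch, while batch 2 HHH libraries exceeded the batch 1 general ones on average. NTN1 was 1.74-fold lower (log2 fold change -0.80, SE 0.14, edgeR adjusted p = 0.00349). NTN3 was 1.84-fold lower (log2 fold change -0.88, SE 0.22, edgeR adjusted p = 0.0289), but rested on 7 to 39 counts per library and lost its call without any 1 of the 6 batch 2 libraries (edgeR adjusted p from 0.0654 to 0.0847). It also missed the threshold in DESeq2 (adjusted p = 0.0508) and with both the GC trend removed and the libraries paired by number (edgeR adjusted p = 0.0509). NTN4, a netrin related to laminin chains that is found in basement membranes, stood at -0.03.

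Of the netrin receptors, UNC5A was lower in HHH. It read 4.58 and 2.85 CPM in batch 1 general libraries and 8.54, 9.14 and 9.80 CPM in those of batch 2, and in HHH 1.95 and 3.18, then 4.77, 4.46 and 4.26 CPM. The populations overlapped in batch 1 and were apart in batch 2. UNC5A was 1.801-fold lower (log2 fold change -0.85, SE 0.16, edgeR adjusted p = 0.00458). UNC5D, the most abundant of the group per kilobase, had values from 125 to 158 CPM in general and from 143 to 172 CPM in HHH libraries (log2 fold change 0.17, SE 0.08, edgeR adjusted p = 0.225). UNC5B stood at -0.33 (edgeR adjusted p = 0.0893) and UNC5C at 0.26. UNC5B passed without general batch 1 replicate 2 (edgeR adjusted p = 0.0383), where 6.33% of all genes did. With all libraries it passed in DESeq2 (adjusted p = 0.0459), against 8.42%, and with no filter on low counts (edgeR adjusted p = 0.0127), against 5.46%. On the deposited values it passed as well (limma adjusted p = 0.0354), against 5.45%, but not after centring.

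Slits went in opposite directions. SLIT2 read 8.80 and 8.98 CPM in batch 1 general libraries and 10.8, 10.96 and 9.73 CPM in those of batch 2, and 10.2 and 20.8, then 18.4, 17.1 and 14.6 CPM in HHH. All but 1 HHH library lay above all general ones, and the batch 1 HHH libraries lay farther apart than the means of the populations. SLIT2 was 1.65-fold higher (log2 fold change 0.72, SE 0.15, edgeR adjusted p = 0.00876). With the deposited log2 values in place of counts, where the median of all tested genes was shifted by -0.12, SLIT2 (0.54, limma adjusted p = 0.111) and SEMA3A (0.24, limma adjusted p = 0.470) stayed positive without passing. After centring SLIT2 passed and SEMA3A did not (limma adjusted p = 0.0848). SLIT1 averaged 1.22 ± 0.559 CPM in general and 0.664 ± 0.375 CPM in HHH libraries, 1.91-fold lower (log2 fold change -0.93, SE 0.21, edgeR adjusted p = 0.0175), from 11 to 103 counts per library. It lost the call without general batch 2 replicate 1 (edgeR adjusted p = 0.0533). SLIT3 stood at -0.13.

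Their receptors did not pass. ROBO1 averaged 159 ± 31.8 CPM in general and 132 ± 38.4 CPM in HHH libraries (log2 fold change -0.29, SE 0.10, edgeR adjusted p = 0.117). It passed without HHH batch 1 replicate 3 (edgeR adjusted p = 0.0467), where 9.80% of all genes tested passed, against 5.83% with all libraries. With no filter on low counts ROBO1 also passed (edgeR adjusted p = 0.0323), against 5.46% of all genes. ROBO2 stood at 0.28 and ROBO3, which modulates the other Slit receptors, at -0.12. By unadjusted p under 0.05 there was 1 ROBO gene, against 4924 of all 23552 genes tested. DESeq2 and limma with voom also called 0 of the 3 tested.

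Within batch 1 alone (2 against 2 libraries), 2 of the 68 genes passed, SEMA6D and EPHA4, against 0.633% of all genes tested. On the log2 scale SEMA6D stood at -1.78 (SE 0.17; edgeR adjusted p = 0.00212) and EPHA4 at -1.27 (SE 0.20; edgeR adjusted p = 0.0259). Within batch 2 alone (3 against 3 libraries), 27 passed, 25 lower and 2 higher, against 13.2% of all genes tested. These were the 16 named above and 11 more, all lower: PLXNA3 (-0.82), EFNB1 (-0.61), PLXNA1 (-0.56), UNC5B (-0.54), EPHB6 (-0.54), SEMA6B (-0.51), EFNA2 (-0.43), SEMA4C (-0.40), EFNB3 (-0.36), PLXNB1 (-0.36) and SEMA3F (-0.30). The median log2 fold change over the 68 genes was 0.00 in batch 1 and -0.23 in batch 2, with 34 negative in batch 1 and 52 in batch 2. Of the 68, 29 were negative and 11 positive in both batches, and 23 were positive in batch 1 and negative in batch 2. All 16 genes of the fit over both batches had the same sign in each batch.

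The guidance genes were rich in G and C, with a median GC content of 57.1% in the exons of the 68, against 47.9% over all tested genes. With a trend on GC content removed from each library, the median over the 68 genes in batch 2 alone was -0.14, and 22 passed, 18 lower and 4 higher, against 10.9% of all genes tested. Over both batches 18 then passed, 14 lower and 4 higher, against 7.47% of all genes tested.

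A difference between the batches in the size of the effect was tested as an interaction, and 2 of the 68 genes passed, against 0.777% of all genes tested. SEMA4A fell further in batch 2 by 1.02 on the log2 scale (edgeR adjusted p = 0.0197), with log2 fold changes of -0.59 in batch 1 and -1.62 in batch 2. SEMA6B stood at 0.30 in batch 1, with 51.8 and 59.2 CPM in HHH against 45.4 and 44.7 CPM in general libraries, and at -0.51 in batch 2, with 34.6, 37.8 and 29.8 CPM against 45.2, 52.0 and 46.8 CPM. Its interaction was -0.80 (edgeR adjusted p = 0.0330). General libraries of SEMA6B were level across batches, and the HHH libraries lay above them in batch 1 and below them in batch 2. With the GC trend removed the SEMA6B interaction was -0.08 (edgeR adjusted p = 0.853) and that of SEMA4A -0.87 (edgeR adjusted p = 0.0925), and with the libraries paired by number both also missed the threshold (0.0937 and 0.0648). With all libraries, 23 of the 68 interactions had an unadjusted p under 0.05, against 4445 of all 23552 genes tested. Without general batch 1 replicate 1 or general batch 2 replicate 3, 0 genes passed, with 20 at an unadjusted p under 0.05 in each. SEMA6B missed the threshold without 7 of the 10 libraries (edgeR adjusted p from 0.0509 to 0.134) and SEMA4A without those 2 (0.0905 and 0.0687). Without HHH batch 1 replicate 2, 4 genes passed, and the share over all genes was not worked out there.

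**Figure D4:**
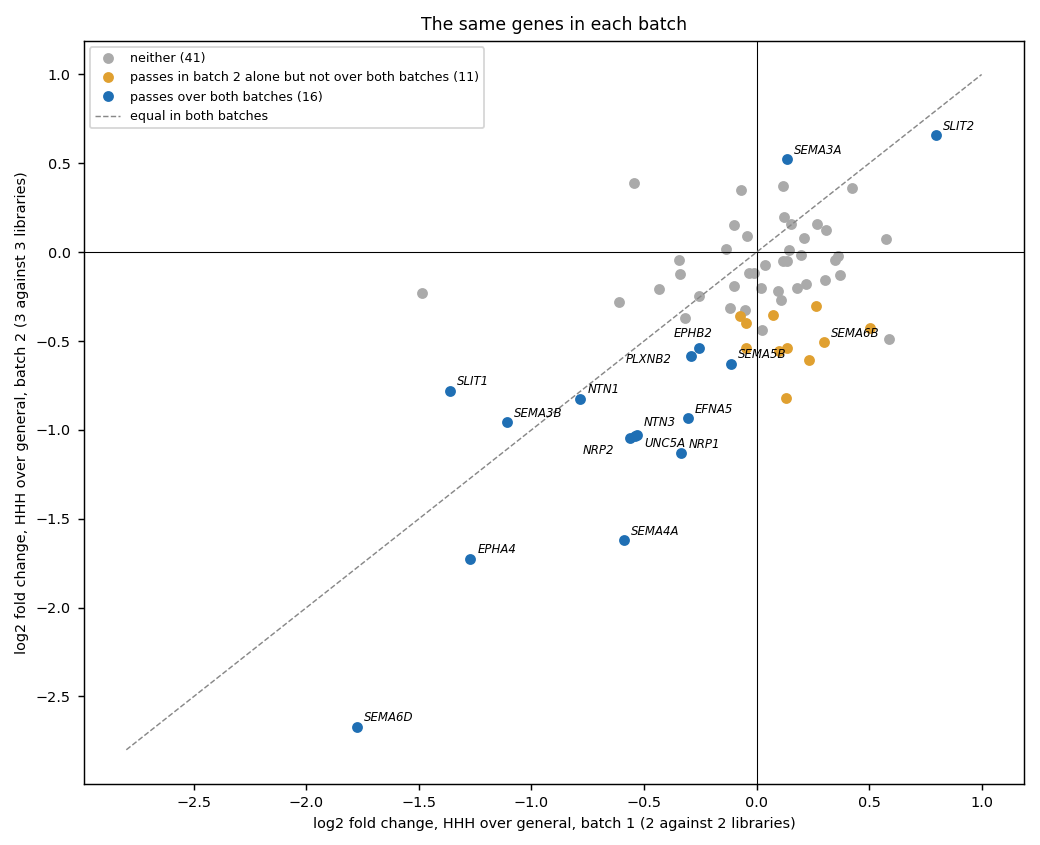
Log2 fold change of HHH over general in batch 1 (x axis) and batch 2 (y axis) for the 68 tested genes, each from an edgeR fit of that batch alone; blue points passed over both batches (16), orange points in batch 2 alone (11), and the dashed line marks equal values. SEMA6D, EPHA4 and SEMA4A lie below the line and SLIT2 in the upper right. Of the orange points, SEMA6B is positive in batch 1 and negative in batch 2.

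Between the batches themselves, with the population as a term, 38 of the 68 genes passed, 29 higher and 9 lower in batch 2, against 47.9% of all genes tested. Batch here is the number in the labels, which do not say what it stands for. All 3 netrins (log2 fold changes from 0.50 to 1.20) and all 3 ROBO genes tested (0.64 to 1.34) were higher in batch 2, as were SLIT1 (1.499) and UNC5A (1.07). EPHA3 was higher by 1.59. SEMA6D was lower (-1.15). Of the 16 genes that passed between the populations, 9 also passed between the batches, a share close to that of the whole set (38 of 68).

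Genes that carry guidance signals inside the cell, a list of 45 collapsin response mediators, MICAL oxidases, small GTPases and their regulators and kinases, were all tested. Of these 6 (13.3%) were lower in HHH and 0 higher, against 3.89% of all tested genes that were lower, among them DPYSL3 (-0.39), DPYSL5 (-0.68), MICAL1 (-0.61), MICAL2 (-0.79) and PAK3 (-0.58). At an unadjusted p under 0.05 there were 12 of either direction, against 4924 of all 23552 genes tested. DESeq2 and limma with voom each called 6 lower and 0 higher, against 5.22% and 3.90% of all genes lower. The median log2 fold change of the list was 0.03. MICAL1, an actin-oxidising enzyme downstream of plexins, averaged 54.8 ± 13.7 CPM in general and 35.3 ± 3.89 CPM in HHH libraries (SE 0.09, edgeR adjusted p = 0.00116). PAK3, a kinase activated by Rac, averaged 13.8 ± 2.21 and 9.29 ± 1.89 CPM (SE 0.08, edgeR adjusted p = 0.00081).

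A list of 35 other guidance cues and receptors had 34 tested genes, with 5 (14.7%) lower and 0 higher, against the same 3.89% over all tested genes: GPC3 (-1.34), FLRT3 (-1.22), FLRT2 (-0.84), RGMA (-0.62) and BOC (-0.56). At an unadjusted p under 0.05 there were 14, against 4924 of all 23552 genes tested. DESeq2 called 8 (against 8.42% of all genes in DESeq2) and limma with voom 5, all lower. The median of the list was -0.17. GPC3, a heparan sulfate proteoglycan of the cell surface, averaged 106 ± 14.96 CPM in general and 42.1 ± 4.86 CPM in HHH libraries, 2.53-fold lower (SE 0.10, edgeR adjusted p = 2.08e-06). FLRT3 and FLRT2, adhesion proteins that bind UNC5 receptors, were 2.33-fold and 1.79-fold lower (edgeR adjusted p = 0.000852 and 0.000766). RGMA is a repellent that binds neogenin, and BOC a receptor related to ROBO that binds Hedgehog proteins.

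Markers of cell types were read as well, beside shares over all tested genes of 3.89% lower and 1.94% higher in HHH. Of 11 neuroectoderm markers 7 were tested, and 4 were lower in HHH (OTX2, SOX1, ZIC1 and DLK1) and 0 higher. DESeq2 called 5 of them (4 lower, 1 higher), against 8.42% of all genes. The count in limma with voom was 3, all lower, against 5.85%. The summed level of the 11 ran from 289 to 402 CPM in general and from 177 to 282 CPM in HHH libraries, most of it from OTX2 and NES. Without these, the other 9 summed to 2.90 to 6.89 CPM in general and 1.84 to 2.93 CPM in HHH libraries. PAX6 stood at 0.960 ± 0.169 and 0.862 ± 0.135 CPM. OTX2 was 2.78-fold lower, at 109 ± 17.7 and 39.1 ± 5.57 CPM. Of 11 neuron markers 8 were tested and 1, STMN2, was lower, with sums from 196 to 233 CPM and from 166 to 270 CPM, and ELAVL4 was at 0 counts in every library. Of 7 neural crest markers 5 were tested, with SOX10 lower and FOXD3 higher and sums from 61.4 to 76.2 and from 73.9 to 84.4 CPM.

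Of 5 endothelium markers, all tested, TEK was lower, against 3.89% of all tested genes that were lower. Sums ran from 129 to 193 CPM in general and from 143 to 167 CPM in HHH libraries. Nearly all came from KDR and TEK, while CDH5 averaged 0.246 and 0.279 CPM. Of 7 amnion and trophectoderm markers, 1 passed the filter and was lower, with sums from 5.77 to 10.4 and from 3.39 to 5.55 CPM. Of 8 mesendoderm markers 1 passed the filter, with sums from 0.995 to 1.57 and from 1.02 to 2.59 CPM, and GATA6 was at 0 counts in all HHH libraries. Of 8 pluripotency markers 2 were higher (NANOG, EPCAM) and 2 lower (SOX2, PODXL), against 1.94% and 3.89% of all tested genes. Their sums ran from 4249 to 5560 and from 3902 to 5228 CPM. The part of these cell types in the changes of the guidance genes was not tested.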

How the data were processed

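The deposited count table holds unscaled whole counts for each Ensembl gene identifier, and its counts were analysed for the 5 general and 5 HHH libraries, with population, batch and replicate taken from the titles. The submitters' processing notes name GRCh37, CASAVA 1.8.2, R 3.2.2 and limma 3.26.9 with no role, and the aligner and counter are not given in the sources used here. The authors also deposited log2 values (a score after TMM scaling and RPKM conversion, from which a batch term had been subtracted), which were used only as an alternative and to rank levels.

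Identifiers were matched to GENCODE 44 (GRCh38), where 88.5% matched and all 70 symbols that meet the rule were found. No guidance gene had the counts of another gene, but 4 share 20% or more of their exonic bases with one (EFNA3, SEMA4G, UNC5CL, PLXNB3), and their values are uncertain to that extent. Genes were kept by filterByExpr with a minimum count of 10, scaled by TMM and tested two-sided in R 4.3.3 by quasi-likelihood (edgeR 4.0.16), with batch as a term and Benjamini-Hochberg adjustment over all 23552 tested genes. Genes passed at an adjusted p under 0.05. The standard error was the size of the log2 fold change over the square root of F. The common biological coefficient of variation was 0.128. Batches alone, the interaction and the batch term were fitted likewise. The fits were tested on simulated counts with known changes. Those counts held no batch difference common to both populations, so they do not bear on how the batch term performs.

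Deviations of same-numbered libraries from the means of population and batch correlated at 0.239, 0.143 and 0.113 in batch 2. Differently numbered ones there correlated from -0.126 to -0.00512, which deviations from a common mean partly force. In batch 1 the value was 0.113 for replicate 2, but also for general replicate 1 with HHH replicate 3, so it cannot bear on pairing. An alternative fit took the numbers as pairs, with number as a block. In batch 1 the populations share only replicate 2, so general replicate 1 and HHH replicate 3 carried no weight on the population in that fit. Other alternatives were RLE and upper quartile factors, library size only, other filters, DESeq2 1.42.0, limma 3.58.1 with voom and on the deposited values, removal of a GC trend (spline with 5 degrees of freedom), and leaving out each library. Named were all genes that passed over both batches, in 1 batch or in the interaction, the leader of each family by level, and the 3 genes with the smallest p of each further list, of which 1 is not reported here. Other genes of the families were named to account for all of them, and some genes of the further lists beyond those 3 were named because they passed. The genes and lists were chosen with earlier results of these data known. Promoter windows came from a RefSeq table (GRCh38.p14). EFNB3, EPHA10, NRP1, NTN1, NTN3, SEMA3A, SEMA6A, SEMA6B, UNC5B and UNC5D had no window.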

Additional observations from a re-analysis of the deposited data

Results flagged for a closer look

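Of 34 guidance genes examined for a library far from the other 4 of its population, 3 had one. If the 5 libraries differed at random only, about 1 in 20 groups would have such a gap, and each gene was examined in both populations. The 5 libraries of a population span both batches, so that rate may not hold here, and the part of batch in these gaps was not tested. NRP2 was highest in HHH batch 1 replicate 3, whose gap to the next library took 0.881 of the range of the HHH libraries, which ran only from 16.6 to 18.6 CPM. NRP1 was lowest in that same library, at 2.13 CPM, with a gap of 0.775 of the range. SEMA6B was highest in general batch 2 replicate 2, at 52.0 CPM, with a gap of 0.711 of the range.

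The effect of the population differed between the batches for 2 genes. The interaction was -1.02 on the log2 scale for SEMA4A, which was lower in HHH in both batches, and -0.80 for SEMA6B, which was higher in HHH in batch 1 and lower in batch 2. Both calls were lost with the GC trend removed and with libraries paired by number.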

How the results depend on the processing

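None of the 16 guidance genes that passed changed direction under the 13 other settings or without any of the 10 libraries (12 settings for NTN3, which failed the filter of 1 CPM in 5 libraries), and 11 of them passed without each library in turn. SEMA6D, EPHA4 and NRP2 passed throughout. The count of 16 fell to 3 without a batch term, where 0.713% of all genes tested passed, against 5.83% with it. It fell to 10 at an adjusted p under 0.01, where the share over all genes was not worked out. It ran from 12 to 20 with 1 library left out, where 3.43% to 9.80% of all genes tested passed. It was 20 with no filter on low counts, against 5.46% of all genes. On the deposited values 19 passed, all lower, as were 1231 of the 1281 that passed among all genes, whose median was shifted by -0.12. After centring 13 passed, 12 of them lower, against 3.82% of all genes. With the GC trend removed 8 of the intracellular list passed (6 lower) and 8 of the other cues (7 lower), against 7.47% of all genes tested. The count ran from 2 to 3 for batch 1 alone, 22 to 25 for batch 2 alone, 34 to 42 between batches, 6 to 6 for the intracellular list and 5 to 7 for the other cues when libraries were left out. For the counts by batch and between batches, the share over all genes was not worked out in these fits. The interaction count of 2 fell to 0 with the GC trend removed (14 at an unadjusted p under 0.05) and to 0 with the replicate block (19), and ran from 0 to 4 when libraries were left out. Before these changes 23 of the 68 were under 0.05 unadjusted, against 4445 of all 23552 genes tested. The block, which was not fitted for batch 1 alone or between the batches, moved no other count by over 1.5 times where it was, and besides SEMA4C, PLXNA1, PLXNA3 and both interactions it changed no call of a guidance gene over both batches.

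Signs changed in any setting or without any library for 22 of the 68 tested genes, all within 0.17 of 0 on the log2 scale over both batches. These were 7 with the replicate block, 5 with the GC trend removed, 7 with both, 12 on the deposited values, 2 on these after centring and 3 with library size only, and 0 under the other 7 settings. Values follow for genes that passed in any fit or led a family. With the GC trend removed EPHB4 was at 0.0235 and EFNA4 at 0.0455. With the replicate block SEMA6A was at -0.0697 and EFNB2 at -0.0251, and with the GC trend removed besides at -0.0763 and -0.0234, with EFNA4 at 0.0621. On the deposited values SEMA6A was at -0.114 and EFNB2 at -0.0710, and after centring EFNA4 was at 0.00051. With libraries left out EPHB4 ran from -0.0954 to 0.0292, SEMA6A from -0.0248 to 0.135, EFNA4 from -0.0337 to 0.00795, EFNB2 from -0.0102 to 0.125, SEMA3F from -0.160 to 0.00643 and EFNA2 from -0.229 to 0.0736. The cause was not tested. Counts of 7 to 39 limit NTN3. Batch 1 has 2 libraries a population, which limits what it can show alone.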
